A study of Mus musculus with 7 samples.

Results

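The genes described here are 8 homeobox genes of SMB21 cells, chosen by symbol from the 24047 genes of the deposited count table: Meis1, Meis2, Meis3, Pbx2, Pbx3, En1, En2 and Lhx9. SMB21 is a mouse medulloblastoma line, labelled as a Ptch mutant of the Ptch1tm1Mps/J strain background taken from an adult, and all groups share that mutation. Cells grown as neurospheres were infected with a lentiCRISPR vector, which delivers Cas9 and a guide RNA, and RNA was taken 2 weeks later. The Ofd1 CRISPR group (3 libraries) carried a guide against Ofd1, which encodes a centriole and basal body protein. The Kif3a CRISPR group (2 libraries) carried a guide against Kif3a, which encodes a kinesin subunit of the motor that builds cilia. The GFP control group (2 libraries) carried a guide against GFP. Whether clones or mixed populations were sequenced is not given in the sources used here. The labels call the replicates biological without naming separate cultures, so p-values measure the spread between these libraries.

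Meis and Pbx proteins belong to the TALE class of homeodomain proteins, which bind DNA together and as partners of Hox and other homeodomain proteins. En1 and En2, the mouse Engrailed proteins, are transcriptional repressors that pattern the midbrain and the cerebellum. In the mouse cerebellum Meis1 marks granule cell progenitors and granule neurons, the lineage from which Hedgehog-driven medulloblastoma arises, and Lhx9, a LIM homeodomain protein, marks early neurons of the rhombic lip that are destined for the cerebellar nuclei.

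Library totals ran from 17961767 to 23022701 counts, so that 3 counts, taken as the floor for a count of 0, equalled 0.130 to 0.167 CPM, the usual scaling of counts to a common library size. This floor covers counting error only. Of all genes, 12875 had enough counts to be tested, among them 7 of the 8 members; Meis2 did not pass the filter. The granule lineage markers Atoh1, Barhl1 and Zic1 were present in all libraries, at 364 to 620, 637 to 1110 and 674 to 746 CPM over the 7 libraries. Kif3a itself averaged 67.2 ± 9.48 CPM in Kif3a CRISPR cells and 104 ± 0.0258 CPM in GFP control cells (SD, n = 2 each), and fell by 0.63 on the log2 scale (adjusted p = 0.000854, edgeR). Ofd1 averaged 21.0 ± 0.985 CPM in Ofd1 CRISPR cells (SD, n = 3) and 22.9 ± 0.419 CPM in GFP control cells (SD, n = 2), a log2 fold change of -0.12 (adjusted p = 0.398, edgeR), so a lower level of its transcript was not detected. In Kif3a CRISPR cells Ofd1 rose, with a log2 fold change of 0.41 (adjusted p = 0.0126, edgeR).

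Meis1 and Pbx3 rose with both guides, and no member fell. In Ofd1 CRISPR cells 2 of the 7 tested members rose, where 14.9% of all tested genes were called in that comparison, 6.79% rising and 8.09% falling. In Kif3a CRISPR cells 2 of 7 rose, where 20.1% of all tested genes were called, 9.19% rising and 10.9% falling. The median log2 fold change of the 7 tested members was 0.20 in Ofd1 CRISPR cells and 0.12 in Kif3a CRISPR cells, beside medians of 0.0028 and 0.0080 over all tested genes. The members' median depended on single libraries: it was 0.09 in Ofd1 CRISPR cells without Ofd1 CRISPR replicate 1 or without GFP control replicate 1, and in Kif3a CRISPR cells it was -0.0063 when GFP control replicate 1 was left out and 0.25 when replicate 2 of that group was. Scaled by library totals alone, 57.5% of the genes called in Ofd1 CRISPR cells were higher, against 45.6% with the scaling used here, and in Kif3a CRISPR cells the shares were 54.3% and 45.8%; Meis1 and Pbx3 rose in either scaling. At an unadjusted p under 0.05, 3 members stood in each of these comparisons, and DESeq2 called 1 member in Ofd1 CRISPR cells and 2 in Kif3a CRISPR cells. Both comparisons share the same 2 GFP control libraries. The members were chosen with earlier results of these data known, so these counts and medians describe them and are no test of the family.

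**Figure D1:**
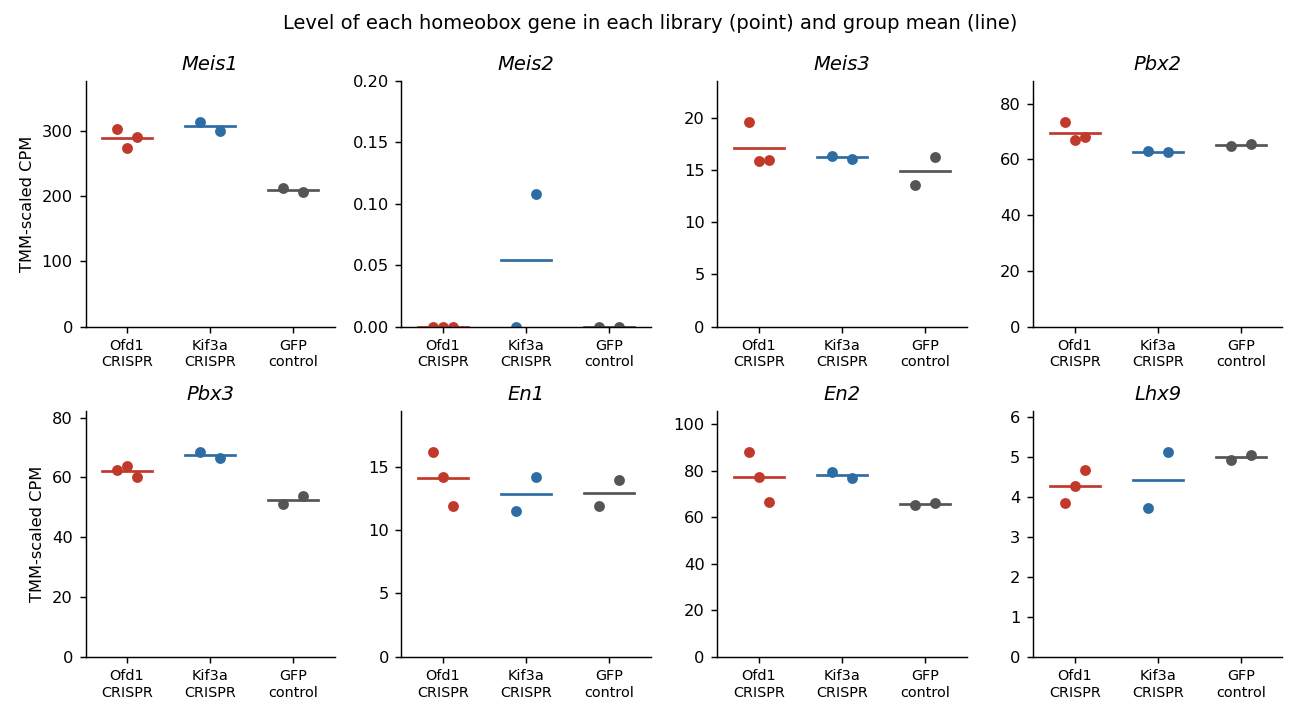
Level of each member in CPM on a linear axis from 0, with its own axis for each gene, one point per library and a bar at the group mean, for Ofd1 CRISPR, Kif3a CRISPR and GFP control cells. Meis1 and Pbx3 lie above both GFP control libraries in all 5 edited libraries, and Meis2 is at or near 0.

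Meis1, whose protein binds DNA with Pbx partners and is best known as a cofactor of Hox proteins, had the largest change of the members in both comparisons with GFP control. It had 303, 274 and 292 CPM across the Ofd1 CRISPR libraries, 314 and 301 CPM in the Kif3a CRISPR libraries, and 213 and 207 CPM in the GFP control libraries. All 5 edited libraries were above both controls, and the Ofd1 and Kif3a CRISPR libraries overlapped each other. In Ofd1 CRISPR cells Meis1 was 38.0% higher, a log2 fold change of 0.46 (SE 0.0683, 95% interval 0.32 to 0.61, adjusted p = 0.00134, edgeR quasi-likelihood test with Benjamini-Hochberg adjustment). In absolute size this change was exceeded by 13.6% of all tested genes. In Kif3a CRISPR cells Meis1 was 46.6% higher, a log2 fold change of 0.55 (SE 0.0740, 95% interval 0.39 to 0.71, adjusted p = 0.000466, edgeR). Both calls held under all 13 other settings tried, with log2 fold changes of 0.43 to 0.50 in Ofd1 CRISPR cells and 0.53 to 0.58 in Kif3a CRISPR cells. Exons of Meis1 overlap an antisense gene and a same-strand gene in GENCODE M21, and the deposited counts list neither. Some counts of Meis1 could come from the same-strand gene and, as the strand setting of the counting is not given, from the antisense gene. These are bulk libraries, so a change in the share of cells of a type and a change in RNA per cell cannot be told apart.

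Meis2, a close relative of Meis1, had 0 counts in 6 of the 7 libraries, including all Ofd1 CRISPR and GFP control libraries. The Kif3a CRISPR replicate 2 library held 2 counts, or 0.108 CPM. No library was above the floor of 3 counts, and no fold change is given. Meis3, the third Meis gene of the mouse, had 19.6, 15.9 and 15.9 CPM across the Ofd1 CRISPR libraries, 16.4 and 16.1 CPM in the Kif3a CRISPR libraries, and 13.6 and 16.3 CPM in the GFP control libraries. Only the Ofd1 CRISPR replicate 1 library stood above the others, and the groups overlapped. The log2 fold change of Meis3 was 0.20 in Ofd1 CRISPR cells (95% interval -0.08 to 0.48, adjusted p = 0.319, edgeR) and 0.12 in Kif3a CRISPR cells (95% interval -0.19 to 0.42, adjusted p = 0.589, edgeR), and it did not pass in either.

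Among the promoters of the members, that of Meis1 is shown because Meis1 changed most, and those of En1 and Lhx9 because they hold a match to the core site of Meis proteins. RefSeq's promoter table (GRCm38.p6) held an entry for 6 of the 8 members, all except Pbx3 and En2. The 250 bases before each start were searched on both strands for 4 sites: TGACAG, the core bound by Meis and Pknox proteins; TGATTGAC, a composite site of Pbx and Hox proteins; TAATTA, a core of Engrailed and LIM homeodomain sites, which reads alike on both strands; and GACCACCCA, the site of the Gli factors of the Hedgehog pathway. The letters TGAC end the Pbx and Hox site and open the Meis site, so these can overlap. Over the 32851 windows of the table, TGACAG occurred in 15.9%, TAATTA in 4.84%, TGATTGAC in 0.691% and GACCACCCA in 0.225%. The windows of Meis1, Meis2, Meis3 and Pbx2 held none of the 4 sites. Those of En1 and Lhx9 each held TGACAG or its reverse complement and none of the other 3. The Meis1 bases lie at chr11:19018986-19019219 on the minus strand, ending 16 bases before the start, with a GC content of 60.3%. The Lhx9 bases lie at chr1:138842458-138842694 on the minus strand, with a GC content of 52.3%, and the En1 bases are 30 at chr1:120602401-120602430 on the plus strand. All are written 5′ to 3′ on the strand of the gene, and capitals mark the match of TGACAG on that strand or its reverse complement.
Meis1: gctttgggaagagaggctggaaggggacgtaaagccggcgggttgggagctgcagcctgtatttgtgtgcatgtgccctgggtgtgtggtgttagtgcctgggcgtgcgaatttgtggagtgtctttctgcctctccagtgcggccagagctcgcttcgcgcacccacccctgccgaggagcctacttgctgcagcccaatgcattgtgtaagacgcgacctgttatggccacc
Lhx9: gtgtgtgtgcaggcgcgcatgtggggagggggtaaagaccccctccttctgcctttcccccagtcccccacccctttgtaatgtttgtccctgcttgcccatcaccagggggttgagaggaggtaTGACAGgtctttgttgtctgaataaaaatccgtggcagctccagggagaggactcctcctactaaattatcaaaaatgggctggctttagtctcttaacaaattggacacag
En1: caaagatccgagCTGTCAgagatttcaggg
A match of letters is a description of the window and shows no binding.

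Pbx3, a partner of Meis and Hox proteins, had 62.6, 64.0 and 60.2 CPM across the Ofd1 CRISPR libraries, 68.5 and 66.6 CPM in the Kif3a CRISPR libraries, and 51.2 and 53.7 CPM in the GFP control libraries. The 3 groups did not overlap: the Kif3a CRISPR libraries were highest and the GFP control libraries lowest. Pbx3 was 18.7% higher in Ofd1 CRISPR cells, a log2 fold change of 0.25 (SE 0.0696, 95% interval 0.10 to 0.40, adjusted p = 0.0341, edgeR), and 28.8% higher in Kif3a CRISPR cells, a log2 fold change of 0.37 (SE 0.0755, 95% interval 0.20 to 0.53, adjusted p = 0.00598, edgeR). The Ofd1 CRISPR call was lost with DESeq2 (adjusted p = 0.0633), without Ofd1 CRISPR replicate 1 (0.0605) or 2 (0.0897), and without GFP control replicate 1 (0.283) or 2 (0.147). The Kif3a CRISPR call was lost without Kif3a CRISPR replicate 1 (adjusted p = 0.0580, edgeR) and without GFP control replicate 1 (0.0889).

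Pbx2, which binds DNA with the same kinds of partner, had 73.4, 66.9 and 68.2 CPM across the Ofd1 CRISPR libraries, 63.1 and 62.6 CPM in the Kif3a CRISPR libraries, and 64.9 and 65.3 CPM in the GFP control libraries. All Ofd1 CRISPR libraries were above the controls and both Kif3a CRISPR libraries were below them. Neither difference passed the test: the log2 fold change was 0.09 in Ofd1 CRISPR cells (95% interval -0.06 to 0.25, adjusted p = 0.391, edgeR) and -0.05 in Kif3a CRISPR cells (95% interval -0.22 to 0.12, adjusted p = 0.673, edgeR). An exon of Pbx2 overlaps Gpsm3 on the same strand, which had 4 to 12 counts per library. Of the counts of both Pbx genes together, Pbx3 took 46.0%, 48.9% and 46.9% across the Ofd1 CRISPR libraries, 52.1% and 51.6% in the Kif3a CRISPR libraries, and 44.1% and 45.1% in the GFP control libraries. Pbx3 had more counts than Pbx2 in the Kif3a CRISPR libraries and fewer in the other 5.

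**Figure D2:**
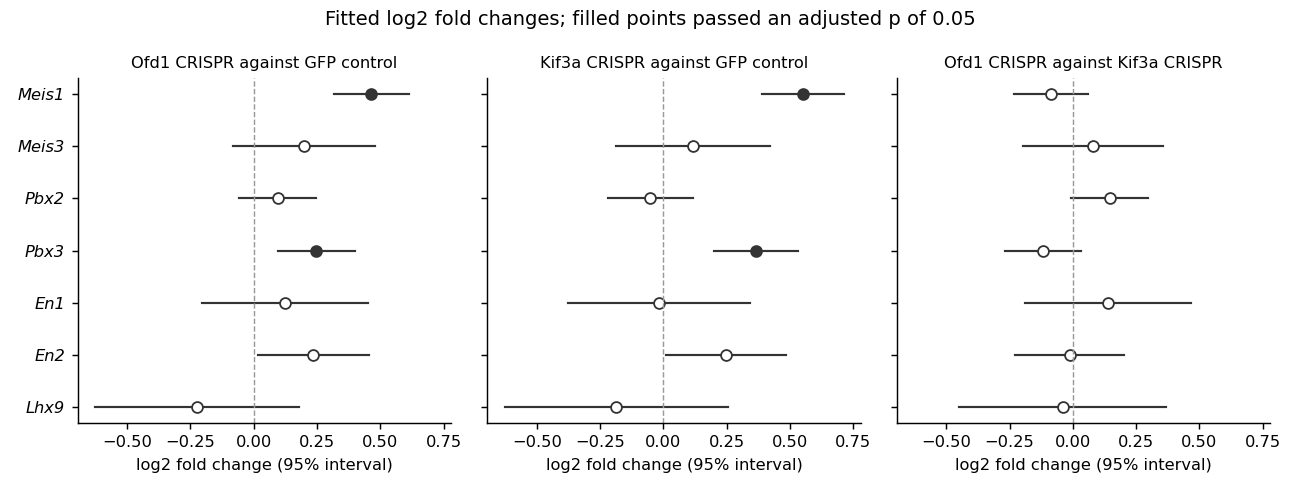
Log2 fold change of the 7 tested members with 95% intervals, for each edited group over GFP control and for Ofd1 CRISPR over Kif3a CRISPR. Filled points passed an adjusted p of 0.05: Meis1 and Pbx3 in the comparisons with GFP control, and none between the edited groups.

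En2, the Engrailed gene with more counts here, had 88.0, 77.5 and 66.6 CPM across the Ofd1 CRISPR libraries, 79.3 and 76.8 CPM in the Kif3a CRISPR libraries, and 65.4 and 66.1 CPM in the GFP control libraries. All 5 edited libraries were above both controls, the Ofd1 CRISPR replicate 3 library only just. That library was also the nearest of the edited libraries to the controls over all genes, with a chi-square per degree of freedom of 18.0 and 20.2 against the 2 GFP control libraries, where the other edited libraries had 23.9 to 51.7. En2 averaged 77.4 ± 10.7 CPM in Ofd1 CRISPR cells (SD, n = 3), 78.1 ± 1.83 CPM in Kif3a CRISPR cells (SD, n = 2) and 65.7 ± 0.517 CPM in GFP control cells (SD, n = 2). Its log2 fold change was 0.24 in Ofd1 CRISPR cells (95% interval 0.02 to 0.45, adjusted p = 0.133, edgeR) and 0.25 in Kif3a CRISPR cells (95% interval 0.01 to 0.49, adjusted p = 0.130, edgeR), and neither passed. Without Ofd1 CRISPR replicate 3, En2 passed in Ofd1 CRISPR cells, with a log2 fold change of 0.33 (adjusted p = 0.0137, edgeR). Without Ofd1 CRISPR replicate 1 it did not, at 0.13 (adjusted p = 0.352, edgeR). In Kif3a CRISPR cells it passed without Ofd1 CRISPR replicate 1 (adjusted p = 0.0430, edgeR) or 3 (0.0413). There it also passed with only the 2 groups compared in the fit (0.0182, edgeR). In those settings the change stayed at 0.24 to 0.25 and its SE was smaller: 0.0832, 0.0762 and 0.0676, against 0.109. A replicate block, described below, gave a pass in each comparison. Only the Ofd1 CRISPR group has a replicate 3, so the block takes that library out of the comparison. En2 did not pass in 11 of the 13 other settings in Ofd1 CRISPR cells and in 9 in Kif3a CRISPR cells.

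En1, the other Engrailed gene, had 16.2, 14.2 and 11.9 CPM across the Ofd1 CRISPR libraries, 11.5 and 14.2 CPM in the Kif3a CRISPR libraries, and 11.9 and 13.9 CPM in the GFP control libraries. The groups overlapped, and within Ofd1 CRISPR the replicate 3 library was lowest, as it was for En2. The log2 fold change of En1 was 0.12 in Ofd1 CRISPR cells (95% interval -0.20 to 0.45, adjusted p = 0.615, edgeR) and -0.02 in Kif3a CRISPR cells (95% interval -0.38 to 0.34, adjusted p = 0.959, edgeR). En2 took 84.5%, 84.5% and 84.8% of the counts of both Engrailed genes across the Ofd1 CRISPR libraries, 87.4% and 84.4% in the Kif3a CRISPR libraries, and 84.6% and 82.6% in the GFP control libraries, so that the groups overlapped in this share too.

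Lhx9 was the lowest of the tested members, with 77 to 101 counts per library. It had 3.84, 4.28 and 4.68 CPM across the Ofd1 CRISPR libraries, 3.71 and 5.12 CPM in the Kif3a CRISPR libraries, and 4.91 and 5.06 CPM in the GFP control libraries. All Ofd1 CRISPR libraries were below both controls, while the Kif3a CRISPR libraries lay on either side of them. The log2 fold change was -0.23 in Ofd1 CRISPR cells (SE 0.185, 95% interval -0.63 to 0.18, adjusted p = 0.443, edgeR) and -0.19 in Kif3a CRISPR cells (SE 0.202, 95% interval -0.63 to 0.25, adjusted p = 0.554, edgeR). These intervals, the widest of the members, do not exclude a fall as large as the rise of Meis1.

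In all, 5 of the 7 tested members did not overlap between Ofd1 CRISPR and GFP control, 4 above and 1 below, where 49.6% of all tested genes did not overlap, 24.5% above and 25% below. Between Kif3a CRISPR and GFP control 4 of 7 did not overlap, 3 above and 1 below, where the share over all tested genes was 66.5%, 34% above and 32.4% below. Between Ofd1 CRISPR and Kif3a CRISPR 2 of 7 did not overlap, Pbx2 with Ofd1 CRISPR above and Pbx3 with Ofd1 CRISPR below, beside 23% of all tested genes, 12.5% above and 10.5% below.

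Compared directly, Ofd1 CRISPR and Kif3a CRISPR cells differed in 0 of the 7 tested members by edgeR, 0 by DESeq2 and 0 at an unadjusted p under 0.05, where edgeR called 0.179% of all tested genes, 0.171% higher and 0.00777% lower in Ofd1 CRISPR cells. The smallest unadjusted p was that of Pbx2, 0.0598, with a log2 fold change of 0.15 (95% interval -0.01 to 0.30, adjusted p = 0.541, edgeR). For Meis1 the log2 fold change was -0.09 (95% interval -0.23 to 0.06) and for Pbx3 it was -0.12 (95% interval -0.27 to 0.03). The other 4 had log2 fold changes of 0.08 for Meis3 (95% interval -0.20 to 0.36), 0.14 for En1 (-0.19 to 0.47), -0.01 for En2 (-0.23 to 0.20) and -0.04 for Lhx9 (-0.45 to 0.37). A difference between the edited groups inside these intervals is not excluded by these libraries.

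**Figure D3:**
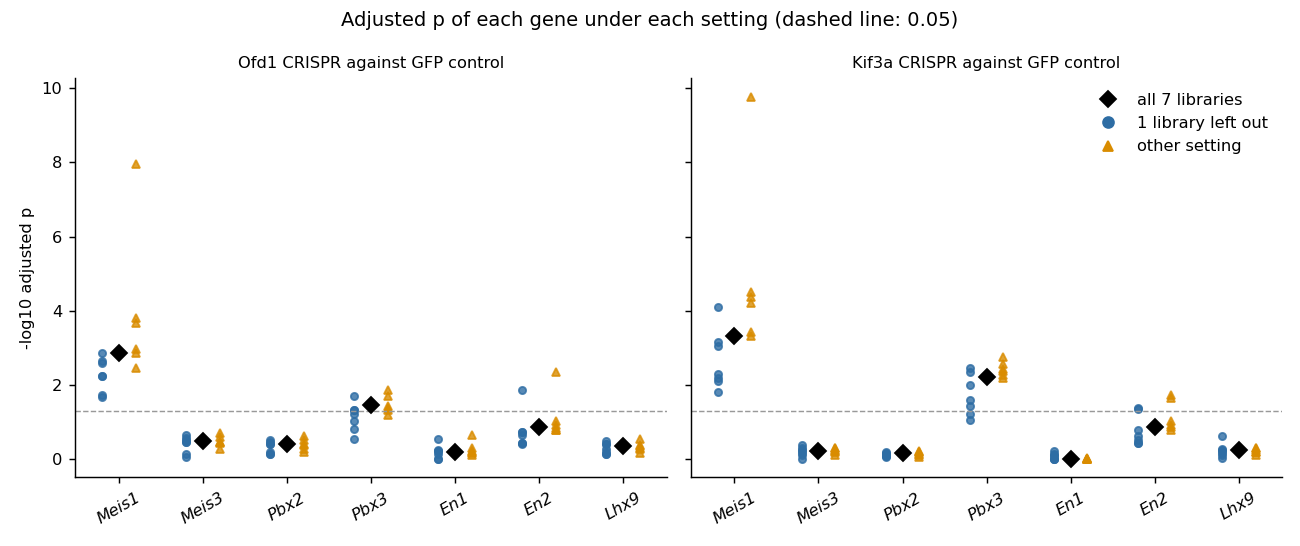
Minus log10 of the adjusted p of each tested member in Ofd1 CRISPR (left) and Kif3a CRISPR cells (right) against GFP control, with the fit of all 7 libraries (diamond), fits with 1 library left out (circles) and the other settings (triangles). Points above the dashed line passed 0.05: all those of Meis1 did, those of Pbx3 and En2 lie on both sides, and none of Meis3, Pbx2, En1 or Lhx9 passed.

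Per length, Meis1 was the most abundant member in each group. With counts divided by the union of a gene's exons (GENCODE M21 lengths), Meis1 averaged 27.5 CPM per kb in Ofd1 CRISPR cells, 29.2 in Kif3a CRISPR cells and 19.9 in GFP control cells. En2 followed with 21.9, 22.1 and 18.6 CPM per kb in the same order of groups, then Pbx2 with 19.1, 17.3 and 17.9, and Pbx3 with 10.2, 11.1 and 8.58. En1 averaged 5.37, 4.89 and 4.93 CPM per kb and Meis3 5.40, 5.11 and 4.71, and these neighbours overlapped in each group. En2 and Pbx2 overlapped in Ofd1 CRISPR cells and not in the other groups. Lhx9 was at 0.450, 0.465 and 0.525 CPM per kb. With the longest coding transcript as the length, the GFP control order was Meis1 at 27.8, Pbx2 at 21.2, Pbx3 at 19.2, En2 at 18.6, Meis3 at 8.13, En1 at 4.93 and Lhx9 at 1.01 CPM per kb. The places of En2, Pbx2, Pbx3, Meis3 and En1 therefore depend on the transcript assumed. Tgif2 is a TALE gene outside the members. Over the exon union it averaged 32.4 CPM per kb in Ofd1 CRISPR cells, 30.2 in Kif3a CRISPR cells and 31.0 in GFP control cells. These means were above that of Meis1 in each group, though the libraries of both genes overlapped in Kif3a CRISPR cells. By the longest coding transcript Tgif2 averaged 42.8, 39.9 and 41.0 CPM per kb in the same order, and Meis1 38.3, 40.7 and 27.8. By that length Meis1 was higher in Kif3a CRISPR cells.

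**Figure D4:**
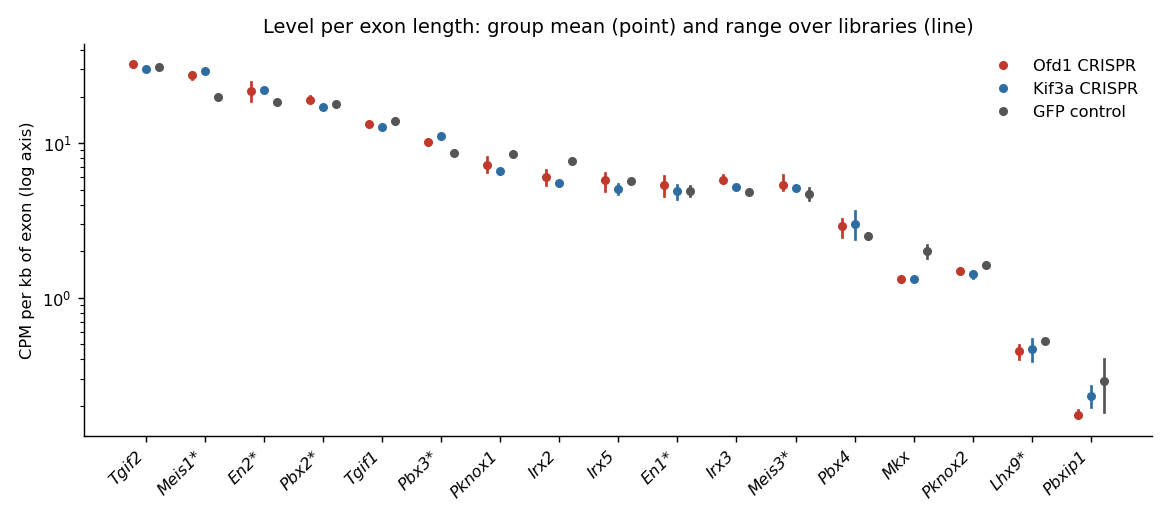
Level in CPM per kb of exon union, on a log axis, of the tested members (asterisks) and of other TALE genes in Ofd1 CRISPR, Kif3a CRISPR and GFP control cells, with points at group means and lines over the range of the libraries. By group means Meis1 is the highest member and Lhx9 the lowest. The mean of Tgif2 stands above that of Meis1 in each group, and their ranges overlap in Kif3a CRISPR cells.

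The genes whose levels over the 7 libraries were most like those of Meis1 were Ypel1, Prkag2 and Otx2. Likeness was the root mean square difference of centred log2 CPM, over 11457 candidate genes, and it was 0.0306 for Ypel1, 0.0373 for Prkag2 and 0.0380 for Otx2, where Meis1 itself varied by 0.232. Of the candidates, 1.82% lay within 0.1 of Meis1. Ypel1 encodes a Yippee-like protein, Prkag2 a regulatory subunit of the energy-sensing kinase AMPK, and Otx2 a homeodomain protein of forebrain and midbrain that is also present in cerebellar granule progenitors. For Pbx3, which varied by 0.144, the nearest were Wdr13 at 0.0261, Coa7 at 0.0285 and Arglu1 at 0.0304, and 11.2% of candidates lay within 0.1, so its profile was a common one. Meis1 and Pbx3 were 0.113 apart.

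Among other TALE homeobox genes and Pbx regulators, the calls were few and all were falls. Of 14 listed, 11 were tested: 0 rose, 2 fell and 9 did not pass in Ofd1 CRISPR cells, and 0 rose, 3 fell and 8 did not pass in Kif3a CRISPR cells. Over all tested genes, 6.79% rose and 8.09% fell in Ofd1 CRISPR cells, and 9.19% rose and 10.9% fell in Kif3a CRISPR cells. With so few genes tested, the absence of rises is no result about the list. The same shares stand beside the lists below. The median log2 fold change of the list was -0.07 in Ofd1 CRISPR cells and -0.16 in Kif3a CRISPR cells. Irx2, an Iroquois gene, averaged 19.7 CPM in Ofd1 CRISPR cells, 18.2 CPM in Kif3a CRISPR cells and 25.0 CPM in GFP control cells, with log2 fold changes of -0.34 (adjusted p = 0.0487) and -0.46 (0.0173). Mkx, known for its part in tendon development, averaged 5.40, 5.41 and 8.20 CPM in the same order, with log2 fold changes of -0.60 (adjusted p = 0.0184) and -0.60 (0.0222). Pknox1, which competes with Meis proteins for Pbx partners, averaged 50.0, 45.6 and 59.4 CPM, with log2 fold changes of -0.25 (adjusted p = 0.0936) and -0.38 (0.0229). These calls were unstable: without GFP control replicate 1 none of the list passed in either comparison, and in Kif3a CRISPR cells none passed without Kif3a CRISPR replicate 1 or 2 and 1 passed without GFP control replicate 2. In Ofd1 CRISPR cells DESeq2 called 0, leaving out Ofd1 CRISPR replicate 2 gave 3, and leaving out any other single library gave 0 or 1.

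The Hox genes, the classical partners of Meis and Pbx, were at 0 or low, apart from Hoxc4. Of 39 listed, 19 had 0 counts in all libraries and 5 were tested: Hoxc4, at 505 to 643 counts per library and a mean of 29.5 CPM in Ofd1 CRISPR cells, 28.6 CPM in Kif3a CRISPR cells and 25.5 CPM in GFP control cells, and Hoxc5, Hoxd8, Hoxd9 and Hoxd13, at 11 to 67. By edgeR 0 of the 5 were called in Ofd1 CRISPR cells and 0 in Kif3a CRISPR cells; by DESeq2 0 were called in both, and at an unadjusted p under 0.05 there were 3 and 0. The median log2 fold change of the 5 was 0.48 in Ofd1 CRISPR cells (0.30 without GFP control replicate 1) and 0.16 in Kif3a CRISPR cells (-0.018 without Kif3a CRISPR replicate 1).

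**Figure D5:**
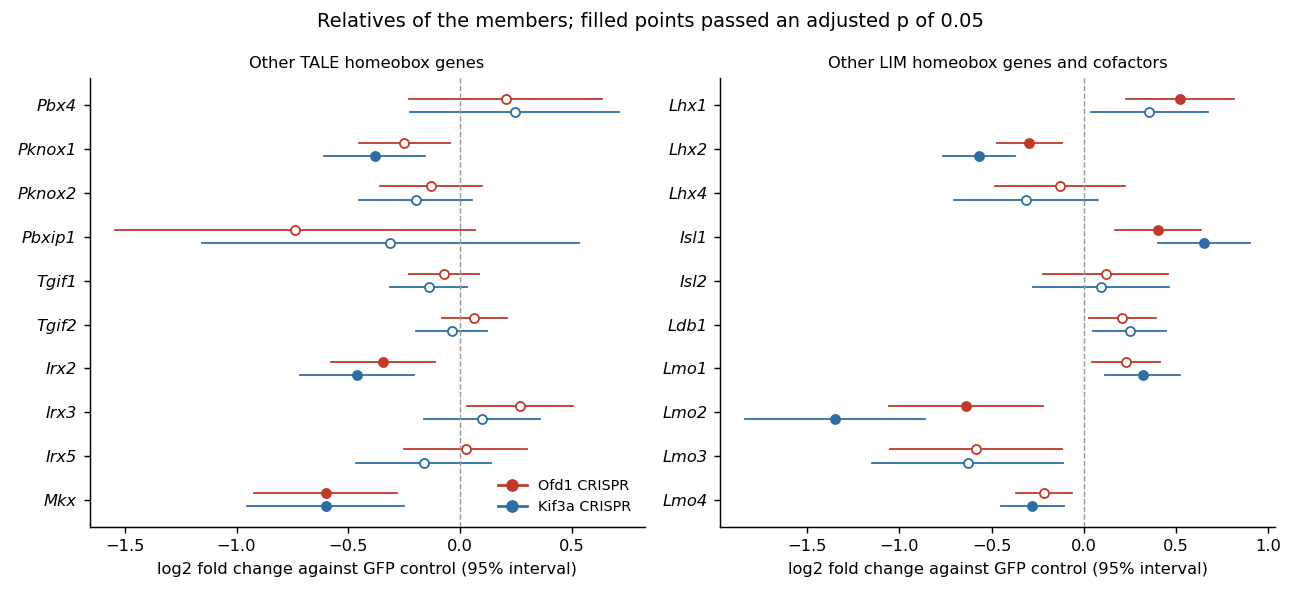
Log2 fold change over GFP control with 95% intervals for tested genes of the other TALE list (left) and the LIM list (right), with Ofd1 CRISPR above Kif3a CRISPR for each gene and points filled where the adjusted p was under 0.05. Filled TALE points, of Irx2, Mkx and Pknox1, all lie below 0, and filled LIM points lie on both sides.

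Of 12 genes of the midbrain-hindbrain organiser, the signalling centre that induces En1 and En2 in the embryo, 4 were tested. Otx2 rose in both comparisons, and Otx1, Fgf8 and Fgf17 did not pass; the median log2 fold change of the 4 was 0.33 in Ofd1 CRISPR cells (0.17 without Ofd1 CRISPR replicate 2) and 0.13 in Kif3a CRISPR cells (0.05 to 0.22 when 1 library was left out, lowest without Kif3a CRISPR replicate 2). Fgf8, the organiser's signalling protein, averaged 17.8 CPM in Ofd1 CRISPR cells, 18.7 CPM in Kif3a CRISPR cells and 26.2 CPM in GFP control cells, with all 5 edited libraries below both controls and log2 fold changes of -0.57 (adjusted p = 0.0953) and -0.49 (0.164). Otx2 had 95.9, 82.7 and 85.0 CPM across the Ofd1 CRISPR libraries, 98.1 and 91.0 CPM in the Kif3a CRISPR libraries, and 64.9 and 61.1 CPM in the GFP control libraries, and all 5 edited libraries were above both controls. Its log2 fold change was 0.48 in Ofd1 CRISPR cells (adjusted p = 0.00301, edgeR) and 0.59 in Kif3a CRISPR cells (adjusted p = 0.000949, edgeR), and both calls held under all 13 other settings. Pax2, Wnt1 and Sp8 had 0 counts in all libraries.

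Of 17 further LIM homeobox genes and LIM cofactors, the family of Lhx9, 10 were tested, and they moved in both directions: 2 rose and 2 fell in Ofd1 CRISPR cells, and 2 rose and 3 fell in Kif3a CRISPR cells. The median log2 fold change of the 10 was -0.0056 in Ofd1 CRISPR cells, on either side of 0 over the settings, and -0.09 in Kif3a CRISPR cells. Isl1, a factor of motor and sensory neurons, averaged 20.6 CPM in Ofd1 CRISPR cells, 24.4 CPM in Kif3a CRISPR cells and 15.5 CPM in GFP control cells, with log2 fold changes of 0.40 (adjusted p = 0.0264) and 0.65 (0.00230). Lhx2, a factor of forebrain and eye, averaged 38.2, 31.7 and 46.9 CPM, with log2 fold changes of -0.30 (adjusted p = 0.0297) and -0.57 (0.00125). Lmo2, a LIM-only cofactor of blood cell development, averaged 5.04, 3.08 and 7.84 CPM, with log2 fold changes of -0.64 (adjusted p = 0.0438) and -1.35 (0.00165). The Kif3a CRISPR calls of these 3 genes held under all 13 other settings, while their Ofd1 CRISPR calls were lost in several, among them DESeq2 and each setting without 1 GFP control library. The others called, named after their values were seen, were Lhx1, which rose by 0.52 in Ofd1 CRISPR cells, and Lmo1 and Lmo4, with log2 fold changes of 0.32 and -0.28 in Kif3a CRISPR cells. Leaving out 1 library gave 0 to 3 that rose and 0 to 3 that fell in Ofd1 CRISPR cells, both 0 without either GFP control library, and 1 to 4 that rose and 2 to 3 that fell in Kif3a CRISPR cells.

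The rise of Meis1 stood beside changes in both directions among genes of its lineage. Of 16 tested granule progenitor genes 4 rose and 6 fell with each guide, and of 15 tested genes of granule neuron differentiation 7 rose and 2 fell with each guide. The median log2 fold change was -0.02 in Ofd1 CRISPR cells and 0.0017 in Kif3a CRISPR cells for the progenitor genes, on either side of 0 over the settings, and 0.28 and 0.35 for the differentiation genes. Among the progenitor genes, Pax6, a homeobox gene of the rhombic lip, had log2 fold changes of 0.73 in Ofd1 CRISPR cells and 0.97 in Kif3a CRISPR cells, and Zic4 had 0.59 and 0.74. Ptch1, the Hedgehog receptor and itself a target of the pathway, had log2 fold changes of -0.91 and -1.25. Among the differentiation genes, Gap43, a growth cone protein, had log2 fold changes of 1.23 and 1.31, Dcx, a microtubule protein of young neurons, 0.88 and 1.15, and the adhesion molecule Cntn2 1.45 and 1.73. The 2 differentiation genes that fell, named after their values were seen, were Rbfox3, which encodes the neuronal nuclear protein NeuN, with log2 fold changes of -0.43 and -0.47, and the transcription factor gene Etv1, with -0.64 and -0.55. These counts were smaller without some libraries. The progenitor genes that fell numbered 3 in Ofd1 CRISPR cells without either GFP control library and 2 in Kif3a CRISPR cells without Kif3a CRISPR replicate 1. The differentiation genes that rose numbered 4 in Ofd1 CRISPR cells without either GFP control library, and 3 in Kif3a CRISPR cells without Kif3a CRISPR replicate 1 and 4 without GFP control replicate 2.

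Summed markers of some other cell types differed between the edited and GFP control groups, and their part in the member changes was not tested. Summed over 7 markers of cerebellar nuclear and unipolar brush neurons, the level was 44.2 to 48.1 CPM in Ofd1 CRISPR cells, 35.5 to 38.8 CPM in Kif3a CRISPR cells and 68.7 to 79.1 CPM in GFP control cells. Lhx2 and Calb2 made up most of it, and Tbr1, Lmx1a and Slc17a6 had at most 6 counts in any library. For 7 Purkinje cell markers the sums were 33.7 to 38.9, 25.3 to 31.6 and 44.1 to 44.7 CPM, with Pcp2 and Car8 at 0 throughout. Rora fell with each guide (log2 fold changes of -0.48 and -1.11), and Pcp4 rose (0.72 and 0.72).

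For 7 markers of GABAergic cells the sums were 35.8 to 52.1 CPM in Ofd1 CRISPR cells, 31.1 to 34.0 CPM in Kif3a CRISPR cells and 14.0 to 19.2 CPM in GFP control cells. They were carried by Pvalb, with Gad2, Slc32a1 and Pax2 at 0 throughout. For 8 markers of the oligodendrocyte lineage the sums were 96.0 to 183, 103 to 145 and 271 to 285 CPM, mostly Pdgfra, with Sox10 and Mog at 0. For 9 markers of stem cells and astrocytes they were 1038 to 1084, 1032 to 1105 and 1075 to 1141 CPM, with Aqp4 at 0. Within that sum genes changed in both directions with each guide: Sox2 (log2 fold changes of -0.67 and -0.79) and Sox9 (-0.65 and -0.80) fell, and Slc1a2 (0.28 and 0.46) rose. Endothelial and fibroblast markers summed to at most 2.86 CPM in any library.

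The 14 microglia and macrophage markers summed to 3.34 to 4.84 CPM in Ofd1 CRISPR cells and 3.37 to 3.67 CPM in Kif3a CRISPR cells, against 24.8 CPM in GFP control replicate 1, with 121 counts of Lyz2, and 2.96 CPM in GFP control replicate 2. Cx3cr1 was at 0. Without that control the log2 fold change of Meis1 was 0.49 in Ofd1 CRISPR cells and 0.57 in Kif3a CRISPR cells, and both passed. For Pbx3 it was 0.21 and 0.33, and neither passed (adjusted p = 0.283 and 0.0889, edgeR), and for Meis3 it was 0.07 in Ofd1 CRISPR cells and -0.0063 in Kif3a CRISPR cells.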

How the data were processed

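The 7 poly-A RNA libraries of SMB21 cells were prepared with a stranded kit and read as single 75-base reads on 1 run, per the labels' protocols. The deposited values are raw counts per gene symbol, not normalized by the authors. The tools named per the submitters' processing notes are STAR and DESeq2, and the build is mm9, with no version or role; no source used here gives the counter, its strand setting or the annotation. In GENCODE M21, exons of Meis1 overlap the antisense gene Gm16140 and the same-strand gene Gm37818. The deposited counts list neither, so reads from them could have been counted as Meis1. Exons of Pbx2 overlap Gpsm3 on the same strand, so reads there could be assigned to either gene. Of the 3 GFP replicates the series text counts, 2 were analysed here.

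Counts were tested with edgeR 4.0.16 (R 4.3.3): filterByExpr, TMM factors, 1 quasi-likelihood fit over all 7 libraries with a mean per group, 2-sided tests, and Benjamini-Hochberg adjustment over all 12875 tested genes in each of 3 comparisons, with a threshold of 0.05. The filter kept 99.96% of counts. DESeq2 1.42.0, other scalings, no filter, only the 2 groups compared, a replicate block and leaving out each library were alternatives. Every member is named. For each called member the 3 genes nearest in log2(CPM + 0.5), centred over the libraries, among tested genes of at least 2 CPM are named, and from each list up to 3 called genes with the smallest adjusted p. The chi-square per degree of freedom compared pairs of libraries over genes with at least 20 counts; the nearest pair, the 2 GFP control libraries, had 4.06, so no library was a repeat of another. Lengths and promoters are of GRCm38, not mm9, and served for lengths, overlaps and sequence only. The members and lists were chosen with earlier results of these data known. Some listed genes are not reported here by name. Figures were drawn with matplotlib 3.10.9.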

Additional observations from a re-analysis of the deposited data

How the results depend on the processing

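The 13 alternatives left the calls of Meis1 in place, with adjusted p of 1.1e-08 to 0.0212 in Ofd1 CRISPR cells and 1.72e-10 to 0.0153 in Kif3a CRISPR cells. Members called in Ofd1 CRISPR cells numbered 1 with DESeq2 and 1 to 3 when 1 library was left out, and in Kif3a CRISPR cells 1 to 3 when 1 library was left out. Over all genes, leaving out 1 library gave 664 to 2831 calls in Ofd1 CRISPR cells (1915 with all), the fewest without GFP control replicate 1 (664) and 2 (816), and 686 to 3119 in Kif3a CRISPR cells (2584 with all), the fewest without Kif3a CRISPR replicate 1 (686), GFP control replicate 1 (1100) and 2 (1362). Between Ofd1 and Kif3a CRISPR cells edgeR called 23 genes, against 86 with DESeq2, 80 with no filter, and 0 to 50 when 1 library was left out: 50 without Ofd1 CRISPR replicate 1, 12 without Kif3a CRISPR replicate 2 and 0 without Kif3a CRISPR replicate 1, where 555 genes had an unadjusted p under 0.05.

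The replicate numbers are not said to mark a shared batch, and same-numbered libraries did not all deviate together. The correlations were 0.146 and 0.153 for GFP control with Ofd1 CRISPR, and 0.276 and 0.207 for Ofd1 with Kif3a CRISPR. For GFP control with Kif3a CRISPR the correlation was -0.001. It is 1 value for both replicate numbers, because deviations from the mean of 2 libraries mirror each other. With the replicate block, 3496 genes were called in Ofd1 CRISPR cells, 3575 in Kif3a CRISPR cells and 191 between them. En2 passed with adjusted p of 0.00444 in Ofd1 CRISPR cells and 0.0221 in Kif3a CRISPR cells (edgeR). Only the Ofd1 CRISPR group has a replicate 3, so the block fits that library by itself and takes it out of the comparisons. In Ofd1 CRISPR cells the log2 fold change of En2 was 0.33 with the block and 0.33 without replicate 3. That of Pbx3 was 0.27 in both, so the block is no separate support there.

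Changes of sign occurred only in log2 fold changes that did not pass the test. Leaving out 1 library gave, in Kif3a CRISPR cells against GFP control, -0.0063 to 0.25 for Meis3, -0.17 to 0.14 for En1 and -0.43 to 0.045 for Lhx9. Between Ofd1 and Kif3a CRISPR cells it gave -0.028 to 0.13 for Meis3, -0.013 to 0.30 for En1, -0.12 to 0.085 for En2 and -0.27 to 0.20 for Lhx9. En1 was at 0.015 in Kif3a CRISPR cells with library totals alone, and En2 at 0.084 between the edited groups with the replicate block. The cause was not tested. At 2 or 3 libraries a group, the 95% intervals of Lhx9, En1, Meis3 and En2 against GFP control are wide. Each includes a rise or a fall as large as the rise of Pbx3 in the same comparison.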
